A study of Homo sapiens with 8 samples.

Results

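HHIP (hedgehog interacting protein) and 8 further genes of the hedgehog pathway are described here in 2 colon cancer cell lines, DKS5 and DKO3, with and without hypoxia. The 9 genes are HHIP, PTCH1, SMO, SUFU, GLI1, GLI2, GLI3, IHH and SHH, out of 19775 genes that a probe set of the array names alone. They were chosen by pathway, and HHIP because its signal was far higher in DKS5 than in DKO3. Every probe set that the platform annotation assigns to exactly 1 of these symbols was taken, which gave 25 of the 54675 probe sets on the array, and no probe set named a member together with a second gene.

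RNA was measured on 8 Affymetrix HG-U133 Plus 2.0 arrays, 2 in each of 4 groups. The groups were DKS5 cells (K-ras mutant) after 12 h of hypoxia at 1% O2, DKS5 cells at normoxia (21% O2), DKO3 cells (K-ras knockout, wild-type) after 12 h of hypoxia at 1% O2, and DKO3 cells at normoxia. All cells were grown in standard medium and harvested at 70% confluency, and their total RNA was amplified and biotin-labelled with NuGEN Ovation chemistry. As background, both lines are clones of the colon cancer line DLD-1, so that each genotype is represented by 1 clone, and K-ras genotype cannot be told apart here from any other difference between the clones. The K-ras gene itself was not analysed here. The design text says that the cultures were repeated to give 2 samples per condition and says no more on how independent the repeats were. The p-values therefore reflect the spread among these arrays alone, and that spread may be technical.

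Hedgehog ligands such as SHH and IHH are secreted proteins that bind the receptor PTCH1. Free PTCH1 holds the membrane protein SMO inactive, and ligand binding releases SMO, which frees the GLI transcription factors from their cytoplasmic inhibitor SUFU. GLI2 acts mainly as an activator, GLI3 mainly as a repressor, and GLI1 is an activator that is itself switched on by the pathway. PTCH1 and HHIP are also targets of the pathway, and both restrain it, HHIP by binding ligand at the cell surface and outside the cell. In the colon, IHH made by differentiated epithelial cells signals largely to the cells of the underlying stroma.

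The regions upstream of HHIP and PTCH1 are shown because these were the members for which at least 2 probe sets put all arrays of one line on the same side of all arrays of the other. Of all probe sets, 3.44% had all DKS5 arrays above all DKO3 arrays and 5.48% had them below. Both regions are the 250 bases that end just before a gene start in RefSeq (GRCh38.p14), written 5′ to 3′ on the strand of the gene. For HHIP this is chr4:144645906-144646155 on the plus strand, and capitals mark the CG dinucleotides. For PTCH1, which has 5 such starts in the table, this is chr9:95509267-95509516 on the minus strand, the one window that holds the motif, and capitals mark the core of the GLI binding motif, which reads GACCACCCA on one strand and TGGGTGGTC on the other.
HHIP: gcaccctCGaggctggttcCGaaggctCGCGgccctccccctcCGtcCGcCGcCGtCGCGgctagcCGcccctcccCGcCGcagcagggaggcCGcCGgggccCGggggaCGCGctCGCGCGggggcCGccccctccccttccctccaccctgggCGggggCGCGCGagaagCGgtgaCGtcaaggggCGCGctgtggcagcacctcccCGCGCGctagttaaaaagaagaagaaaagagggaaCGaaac
PTCH1: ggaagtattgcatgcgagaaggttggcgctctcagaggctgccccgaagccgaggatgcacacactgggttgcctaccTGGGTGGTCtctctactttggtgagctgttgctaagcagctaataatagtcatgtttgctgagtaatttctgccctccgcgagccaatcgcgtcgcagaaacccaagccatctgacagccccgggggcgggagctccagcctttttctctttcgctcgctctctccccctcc

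The HHIP region held 34 CG dinucleotides, against a median of 11 over the 35116 promoter windows of RefSeq, and 6.84% of the windows held as many. The exact GLI core, searched on both strands of windows of 300 bases (250 before and 50 after the start), occurred in 83 of the 35116 windows, or 0.236%. Windows were at hand for 7 of the 9 members, 12 in all. The core occurred in 1 of them, the PTCH1 window printed above, where it lay 172 to 164 bases before the start on the strand opposite to the gene. It was not among the letters of the other 4 PTCH1 windows or of the HHIP window. These matches are descriptions of the letters in the windows.

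Levels are given as array signals, the authors' linear MAS5 intensities after scaling of the arrays to one trimmed mean. The signal of one probe set cannot be set against that of another, so levels are compared only within a probe set. Differences are on the log2(signal + 16) scale, which understates the change of dim probe sets. The trimmed means of the deposited arrays ran from 133 to 201, a 1.52-fold range. Of the 25 member probe sets, 13 had a mean log2 value over the 40th percentile of the array, which corresponds to a signal of 13.8, and 12 had a lower one. Brighter than this were 3 of 4 HHIP, 4 of 5 PTCH1, 3 of 4 SUFU, 1 of 3 GLI2, 1 of 3 GLI3 and 1 of 2 SHH probe sets, and none of the single SMO, single GLI1 and 2 IHH probe sets. The arrays differed in the 3′ to 5′ signal ratio, taken here as the measure of RNA quality. That of GAPDH ran from 1.5 to 4.2. The ratio of ACTB signal at the 3′ end to that at the 5′ end was 54.8 and 25.6 in hypoxic DKS5, 55.1 and 34.3 in normoxic DKS5, 11.5 and 11.0 in hypoxic DKO3, and 49.0 and 14.9 in normoxic DKO3. The 2 arrays of a group correlated at Pearson r of 0.978 to 0.988 over all probe sets.

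The labelled tissue was checked on 12 colon epithelium markers, of which 9 were above the 40th percentile. EPCAM, an adhesion protein of epithelial cells, had signals of 6704 to 7752 in DKS5 and 5316 to 6244 in DKO3. The dim ones were CDX1, LGALS4 and GPA33. Of 17 measured markers of blood, endothelial, stromal, muscle, red blood, liver and nerve cells, 5 were above the 40th percentile (COL1A1, ACTA2, DES, MYH11 and HBB), and 0 passed the test in any of the 5 contrasts. The highest signal of a blood marker (PTPRC, CD3E or CD79A) on any array was 16.5, for CD79A. In bulk RNA, fewer cells that make a transcript and less of the transcript per cell cannot be told apart, which holds for every difference below.

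HHIP was higher in all 4 DKS5 arrays than in all 4 DKO3 arrays on each of its 4 probe sets. The brightest, 230135_at, had signals of 468 and 288 in hypoxic DKS5 and 361 and 459 in normoxic DKS5, against 24.9 and 14.2 in hypoxic DKO3 and 14.0 and 22.4 in normoxic DKO3. The lowest DKS5 array was 11.6-fold above the highest DKO3 array. Of all probe sets, 3.44% had all 4 DKS5 arrays above all 4 DKO3 arrays. Since the HHIP difference chose the gene, it is given without a test.

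In normoxia, 230135_at averaged 409.9 ± 69.3 in DKS5 and 18.2 ± 5.97 in DKO3 (SD, n = 2 each), a 22.6-fold ratio of mean signals and a log2 difference of 3.64 (SE 0.30). In hypoxia it averaged 378 ± 127 in DKS5 and 19.5 ± 7.54 in DKO3 (SD, n = 2 each), a 19.3-fold ratio and a log2 difference of 3.45 (SE 0.30). In order of level, normoxic and hypoxic DKS5 came first and differed by less than their spread, and hypoxic and normoxic DKO3 followed and likewise differed by less than their spread.

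The second probe set, 237466_s_at, had signals of 418 and 234 in hypoxic DKS5 and 304 and 319.7 in normoxic DKS5, against 15.6 and 23.0 in hypoxic DKO3 and 10.8 and 5.8 in normoxic DKO3. The third, 223775_at, had 142 and 114 in hypoxic DKS5 and 129 and 115 in normoxic DKS5, against 6.7 and 16.9 in hypoxic DKO3 and 0.8 and 0.7 in normoxic DKO3. The dimmest, 1556037_s_at, had 13.2 and 29.9 in hypoxic DKS5 and 20.4 and 38.0 in normoxic DKS5, against 1.2 and 8.5 in hypoxic DKO3 and 1.0 and 2.2 in normoxic DKO3. The lines did not overlap on any of the 4, although the dimmest set lay below the 40th percentile and its DKS5 arrays spread 2.89-fold.

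The log2 difference of DKS5 from DKO3 in normoxia was 3.76 (SE 0.30) on 237466_s_at, 3.04 (SE 0.28) on 223775_at and 1.34 (SE 0.30) on 1556037_s_at. In hypoxia the same differences were 3.23, 2.39 and 0.84. On all 4 probe sets the difference was thus smaller in hypoxia than in normoxia. The test of that change, the difference between the responses of the 2 lines to hypoxia, was −0.19 (95% interval −1.14 to 0.76) on 230135_at, −0.53 (−1.48 to 0.42) on 237466_s_at, −0.65 (−1.53 to 0.24) on 223775_at and −0.50 (−1.44 to 0.44) on 1556037_s_at, with adjusted p = 0.9998 on each by limma. The 4 probe sets read the same samples and are not replicates. Over the 8 arrays the other 3 correlated with 230135_at at Pearson r of 0.984, 0.967 and 0.860, with the separation of the lines and the shared arrays behind these values.

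**Figure D1:**
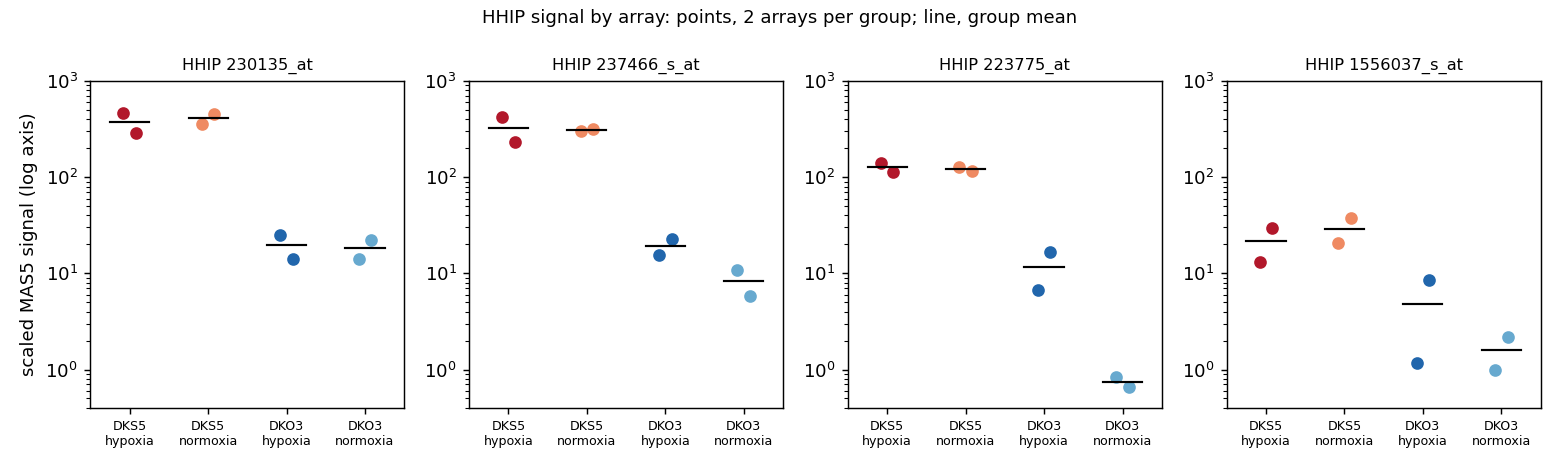
Scaled signal of the 4 HHIP probe sets on each of the 8 arrays, on a log axis, with DKS5 groups left of DKO3 groups and hypoxia left of normoxia. Points are single arrays and bars are group means; all 4 DKS5 arrays lie above all 4 DKO3 arrays on every probe set, and on 230135_at the DKS5 arrays run from 288 to 468.

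Among the members, the 4 HHIP probe sets were the ones with a log2 difference of at least 1 between the lines in normoxia, and 3 of them were so in hypoxia. Over all 54613 probe sets tested, 0.359% were at least 1 higher in DKS5 in normoxia, 0.438% in hypoxia and 0.225% in both. No member was at least 1 lower in DKS5 in either condition, where 0.866% of all probe sets were in normoxia and 1.5% in hypoxia. Nothing is read from these counts, since the contrast chose HHIP.

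HHIP lies on chromosome 4. The nearest 5 protein coding genes with a probe set on each side were INPP4B, USP38, GAB1, SMARCA5 and FREM3 on one side and ANAPC10, ABCE1, OTUD4, SMAD1 and MMAA on the other. SMARCA5, a chromatin remodelling ATPase, had signals of 2341 to 3058 in DKS5 and 1957 to 2611 in DKO3, and SMAD1, a transducer of BMP signals, had 543 to 1096 in DKS5 and 579 to 699 in DKO3. Both overlapped between the lines. ABCE1, a ribosome recycling factor, had 2417 to 2955 in DKS5 and 1929 to 2381 in DKO3, so that all 4 DKS5 arrays lay above all 4 DKO3 arrays. Its log2 difference in hypoxia, 0.28, ran from −0.18 to 0.36 over the other settings tried and changed sign in 1 of them. FREM3 was dim, with 1.93 to 6.54 in DKS5 and 6.86 to 12.7 in DKO3, and all 4 DKS5 arrays lay below all 4 DKO3 arrays. Over all probe sets, 3.44% were separated like ABCE1 and 5.48% like FREM3. The remaining neighbours overlapped between the lines over all arrays. The 10 log2 differences of DKS5 from DKO3 ran from −0.35 to 0.36 in normoxia and from −0.50 to 0.47 in hypoxia. None of the 10 genes passed the test between the lines, with limma's adjusted p of 0.581 or more in normoxia and 0.348 or more in hypoxia, where 0.238% and 0.428% of all probe sets passed.

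**Figure D2:**
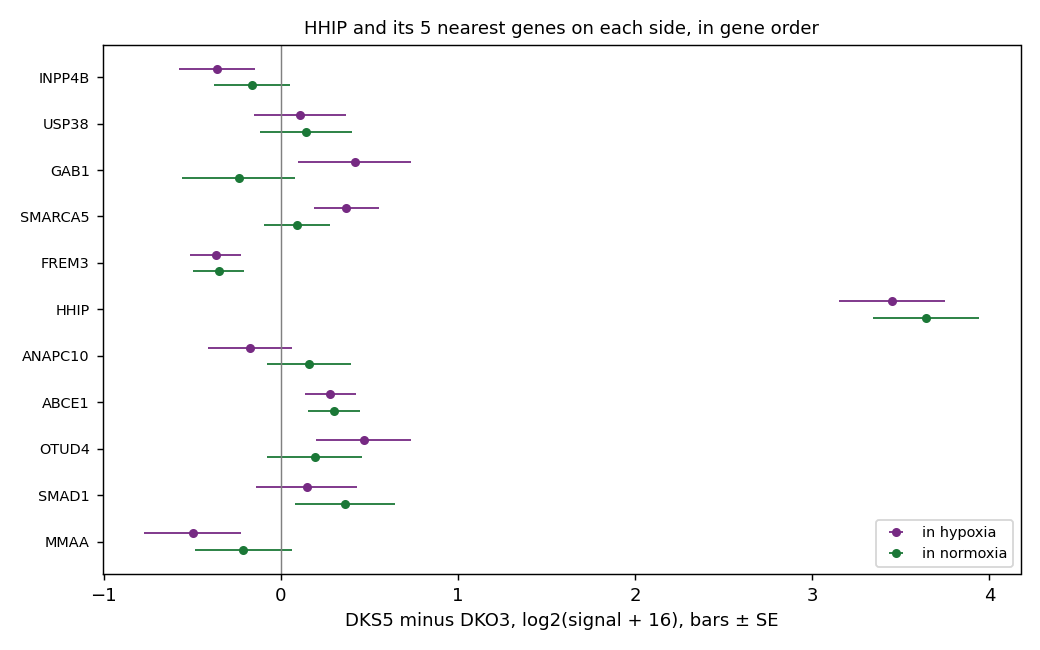
Log2 difference of DKS5 from DKO3 for HHIP (230135_at) and the 10 neighbouring genes in chromosomal order, in normoxia and in hypoxia, with bars of ± 1 SE. HHIP stands at 3.64 and 3.45, and the neighbours lie between −0.50 and 0.47.

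The genes whose pattern over the 8 arrays was most like that of HHIP were sought among 293 genes whose log2 range was at least 0.5 of that of HHIP. The nearest by Pearson r with 230135_at were NIBAN1 (0.993), C6orf141 (0.993), PCOLCE2 (0.987), SESN3 (0.986) and FOXA2 (0.986). FOXA2, a forkhead transcription factor of endoderm, had signals of 159 and 132 in hypoxic DKS5 and 131 and 132 in normoxic DKS5, against 17.7 and 13.9 in hypoxic DKO3 and 4.2 and 7.4 in normoxic DKO3. SESN3, a sestrin induced by stress and FOXO factors, had 615 and 624 in hypoxic DKS5 and 505 and 609 in normoxic DKS5, against 134 and 123 in hypoxic DKO3 and 135 and 114 in normoxic DKO3. These 5 genes were picked for this likeness, and with the lines far apart the r mostly records that separation.

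PTCH1, the receptor that ligand inactivates, was lower in DKS5 than in DKO3 on its 2 brightest probe sets. Probe set 209815_at had signals of 1205 and 1287 in hypoxic DKS5 and 986 and 1226 in normoxic DKS5, against 1568 and 1642 in hypoxic DKO3 and 2052 and 1591 in normoxic DKO3. Probe set 209816_at had 69.2 and 97.5 in hypoxic DKS5 and 87.7 and 91.9 in normoxic DKS5, against 148 and 148 in hypoxic DKO3 and 245 and 133 in normoxic DKO3. On both probe sets all 4 DKS5 arrays lay below all 4 DKO3 arrays, a pattern that 5.48% of all probe sets had.

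The log2 difference of DKS5 from DKO3 on 209815_at was −0.71 (SE 0.18) in normoxia and −0.36 (SE 0.18) in hypoxia, and on 209816_at it was −0.90 (SE 0.29) and −0.74 (SE 0.29). As ratios of mean signals these were 0.607 and 0.776 on 209815_at and 0.475 and 0.562 on 209816_at. One DKO3 array, normoxia replicate 1, carried much of the normoxic difference on 209816_at, which was −0.49 without it and −1.31 without normoxia replicate 2. The direction held in every setting tried, from −0.89 to −0.53 in normoxia on 209815_at and from −1.31 to −0.49 on 209816_at. HHIP and these PTCH1 probe sets thus stood in opposite directions between the lines, HHIP higher and these PTCH1 probe sets lower in DKS5.

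The remaining 3 PTCH1 probe sets did not show this in both conditions. Of these, 208522_s_at and 1555520_at also had means above the 40th percentile. Probe set 208522_s_at had signals of 12.6 to 22.1 in DKS5 and 8.4 to 24.1 in DKO3, which overlapped. Probe set 1555520_at had 20.7 and 13.8 in hypoxic DKS5 and 6.7 and 9.5 in normoxic DKS5, against 21.4 and 11.6 in hypoxic DKO3 and 30.9 and 15.4 in normoxic DKO3. There DKS5 was lower in normoxia, as on 19.5% of all probe sets, and the lines overlapped in hypoxia. On 238754_at no array exceeded 2.1. The annotation does not say which PTCH1 transcripts each probe set reads.

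The 2 ligands had low signals, with 1 SHH probe set over the 40th percentile and both IHH probe sets below it. SHH, read by 236263_at, had signals of 21.1 and 22.3 in hypoxic DKS5 and 19.3 and 34.5 in normoxic DKS5, against 45.5 and 40.1 in hypoxic DKO3 and 26.9 and 30.9 in normoxic DKO3. The 2 hypoxic DKS5 arrays lay below the 2 hypoxic DKO3 arrays, as on 23.3% of all probe sets, while the normoxic arrays of the lines overlapped. The log2 differences of DKS5 from DKO3 were −0.64 (SE 0.27) in hypoxia and −0.09 (SE 0.27) in normoxia. The change of that difference with oxygen was −0.55 (95% interval −1.40 to 0.30, adjusted p = 0.9998 by limma). The other SHH probe set, 207586_at, stayed between 3.2 and 14.4 and did not show this. Its log2 difference of DKS5 from DKO3 was −0.01 in hypoxia, with overlap. In normoxia it was 0.45 (SE 0.21), with DKS5 at 14.4 and 12.7 above DKO3 at 8.3 and 3.3, as on 19.2% of all probe sets.

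IHH, read by 215420_at, had signals of 15.03 and 39.9 in hypoxic DKS5 and 8.2 and 2.5 in normoxic DKS5, against 3.5 and 7.2 in hypoxic DKO3 and 15.9 and 13.6 in normoxic DKO3. Hypoxic arrays lay above normoxic arrays in DKS5 and below them in DKO3, a pattern of opposite responses without overlap that 3.93% of all probe sets had, in either direction. The log2 difference of DKS5 from DKO3 was 0.97 (SE 0.29) in hypoxia and −0.54 (SE 0.29) in normoxia. Without replicate 2 of hypoxic DKS5 the difference in hypoxia was 0.55, and without replicate 2 of normoxic DKS5 that in normoxia was −0.35. This probe set lay below the 40th percentile, and the second IHH probe set, 229358_at, stayed between 1.0 and 11.7.

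SMO, the membrane protein that PTCH1 holds in check, was read by 1 dim probe set, 218629_at. Its signals were 3.1 and 16.7 in hypoxic DKS5 and 10.9 and 23.0 in normoxic DKS5, against 4.7 and 3.3 in hypoxic DKO3 and 14.8 and 4.1 in normoxic DKO3. The groups overlapped, and the log2 differences of DKS5 from DKO3, 0.38 in normoxia and 0.33 in hypoxia, were each close to their SE of 0.31.

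SUFU, the cytoplasmic inhibitor of GLI proteins, was read by 4 probe sets. On 222749_at the signals were 69.9 and 136 in hypoxic DKS5 and 86.2 and 76.8 in normoxic DKS5, against 81.2 and 81.1 in hypoxic DKO3 and 102 and 78.8 in normoxic DKO3, and the lines overlapped in both conditions. On 224202_at they were 66.0 and 100.2 in hypoxic DKS5 and 60.8 and 66.6 in normoxic DKS5, against 54.8 and 22.3 in hypoxic DKO3 and 56.1 and 60.3 in normoxic DKO3. There all 4 DKS5 arrays lay above all 4 DKO3 arrays, as on 3.44% of all probe sets, with log2 differences of 0.91 (SE 0.33) in hypoxia and 0.10 (SE 0.33) in normoxia, and 1 DKO3 array at 22.3 stood apart. Without that array, hypoxia replicate 2 of DKO3, the difference in hypoxia was 0.46. On 224203_at the signals ran from 10.3 to 28.7 in DKS5 and from 10.4 to 27.5 in DKO3. Its log2 difference of DKS5 from DKO3 was 0.43 (SE 0.28) in normoxia, without overlap, and −0.23 (SE 0.28) in hypoxia, with overlap. Of all probe sets, 19.2% were higher in DKS5 without overlap in normoxia. On 224201_s_at no array exceeded 1.9.

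GLI1, the activator that is itself a target of the pathway, had signals of 5.6 and 1.9 in hypoxic DKS5 and 3.6 and 5.9 in normoxic DKS5, against 8.5 and 9.0 in hypoxic DKO3 and 1.0 and 7.5 in normoxic DKO3 on its single probe set, 206646_at. Every array was below 13.8, the 40th percentile. The log2 difference of DKS5 from DKO3 was 0.05 in normoxia and −0.33 in hypoxia, each with an SE of 0.18.

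GLI2, the main activator, was read most brightly by 228537_at, with 49.4 and 35.5 in hypoxic DKS5 and 44.2 and 32.6 in normoxic DKS5, against 36.9 and 31.6 in hypoxic DKO3 and 19.9 and 35.9 in normoxic DKO3. The groups overlapped. Its other probe sets, 207034_s_at and 208057_s_at, ran from 2.1 to 18.4 and from 0.8 to 7.3.

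GLI3, the main repressor, had 43.0 and 32.5 in hypoxic DKS5 and 49.7 and 51.6 in normoxic DKS5, against 45.9 and 36.8 in hypoxic DKO3 and 46.9 and 42.1 in normoxic DKO3 on 227376_at. The lines overlapped in hypoxia. The normoxic DKS5 arrays lay just above the normoxic DKO3 arrays, as on 19.2% of all probe sets, with a log2 difference of 0.14 (SE 0.25). The dimmer 1569342_at had 24.5 and 14.4 in normoxic DKS5 against 1.5 and 6.1 in normoxic DKO3, a log2 difference of 0.83 (SE 0.27), and 0.15 in hypoxia. The third, 205201_at, stayed between 2.5 and 11.0.

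**Figure D3:**
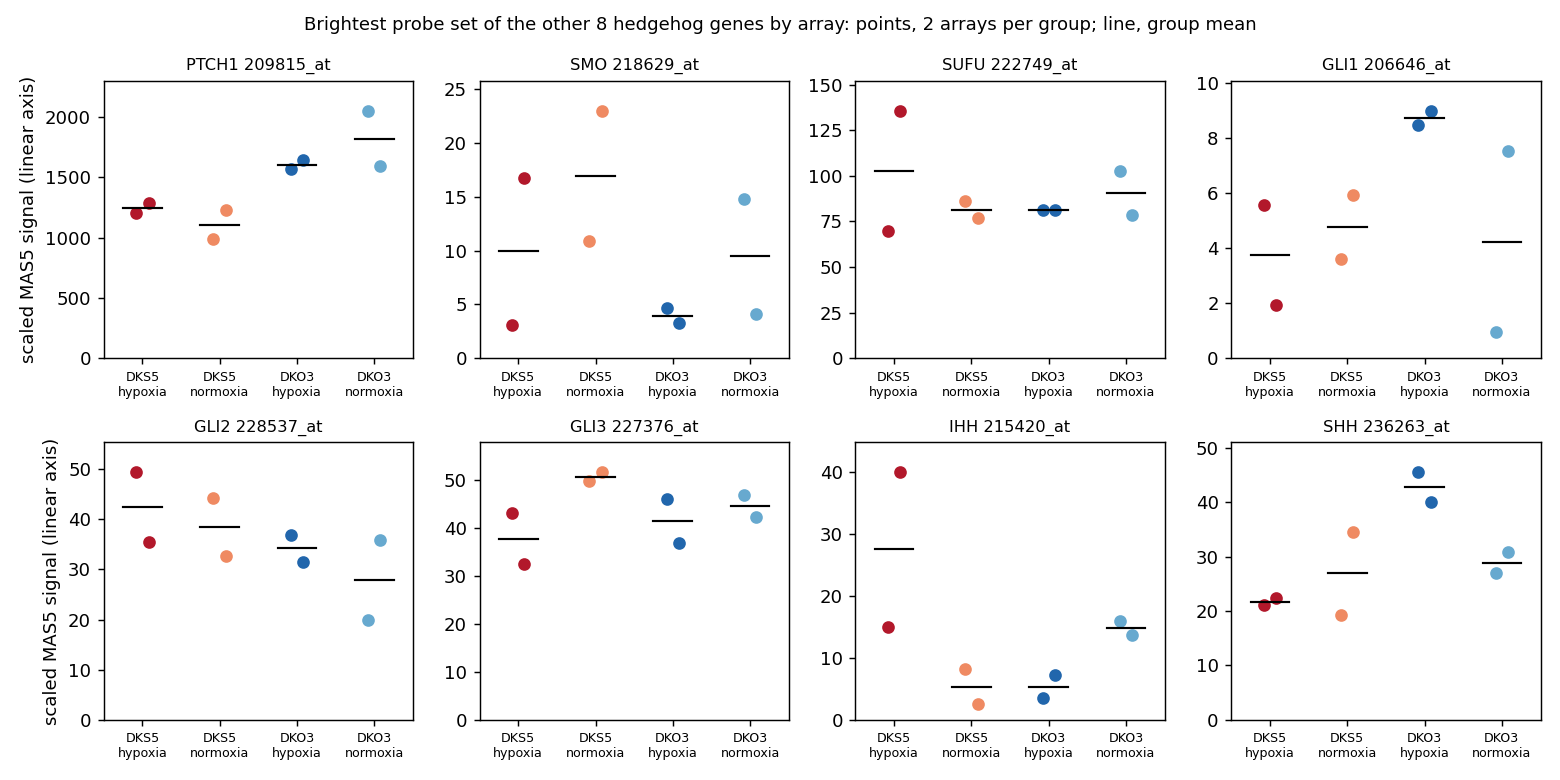
Scaled signal of the brightest probe set of each of the 8 other hedgehog genes on every array, on linear axes that start at 0. Points are arrays and bars are group means, with DKS5 left of DKO3 and hypoxia left of normoxia; PTCH1 (209815_at) runs from 986 to 1287 in DKS5 and from 1568 to 2052 in DKO3, while GLI1, SMO and IHH stay at or below 39.9.

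Leaving out HHIP, the 21 probe sets of the other 8 genes had log2 differences of DKS5 from DKO3 of −0.90 to 0.83 in normoxia, with a median of 0.01 beside 0.00 over all probe sets. In hypoxia they had −0.74 to 0.97, with a median of −0.01 beside −0.03 over all probe sets. In normoxia 12 were positive and 9 negative, and in hypoxia 10 and 11. Counting all 25, the DKS5 arrays lay above the DKO3 arrays without overlap on 10 probe sets in normoxia and below them on 4, where 19.2% and 19.5% of all probe sets did. In hypoxia the counts were 6 and 5, where 16.6% and 23.3% of all probe sets did. Again nothing is read from these counts, since the contrast was the one that chose HHIP.

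**Figure D4:**
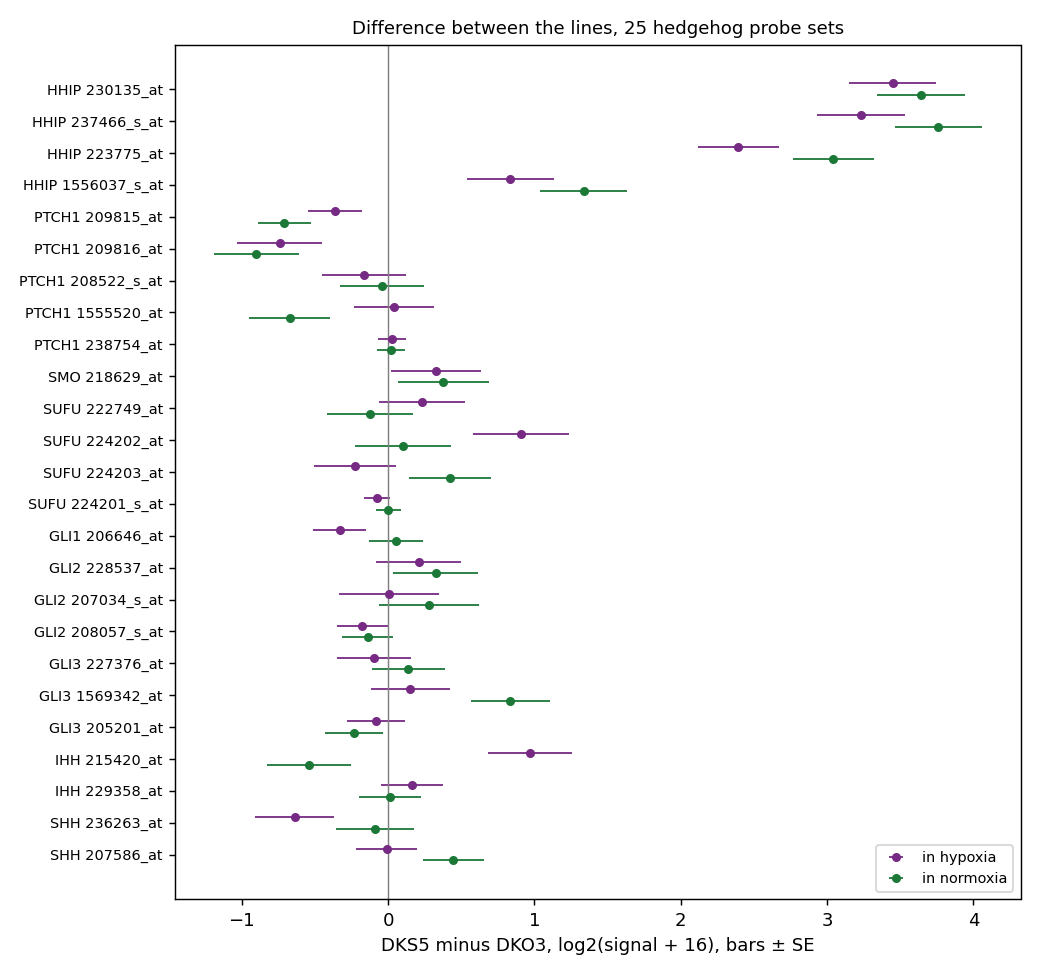
Log2 difference of DKS5 from DKO3 for the 25 member probe sets, in normoxia and in hypoxia, with bars of ± 1 SE. The 4 HHIP probe sets reach from 0.84 to 3.76, and the other 21 lie between −0.90 and 0.97.

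The response to hypoxia did not enter the choice of the genes and was tested. In DKS5, hypoxia against normoxia, 0 of the 25 member probe sets passed the threshold of limma's adjusted p of 0.05, where 0.0677% of all probe sets did (37, all higher in hypoxia). The lowest adjusted p among the members was 0.748. At an unadjusted p under 0.05 there was 1 member, IHH 215420_at, where 5.4% of all probe sets passed. The 25 log2 differences ran from −0.53 to 0.98, with 12 positive and 13 negative and a median of 0.00 beside 0.01 over all probe sets. Hypoxic arrays lay above normoxic arrays without overlap on 2 members and below them on 4, where 18% and 15.7% of all probe sets did.

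In DKO3, 0 of the 25 passed, where 0.00183% of all probe sets did (1 probe set, higher in hypoxia), and the lowest adjusted p was 0.698 by limma. At an unadjusted p under 0.05 there was 1 member, HHIP 223775_at, where 6.87% of all probe sets passed. The log2 differences ran from −0.53 to 0.71, with 15 positive and 10 negative and a median of 0.06 beside 0.03 over all probe sets. Hypoxic arrays lay above normoxic ones without overlap on 5 members and below on 2, where 21.9% and 14.2% of all probe sets did. With 2 arrays a group, the test found 56% of 4-fold and 7% of 2-fold changes put into artificial data for DKS5, and 56% and 9% for DKO3, so that moderate responses could be missed.

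For HHIP the response in DKS5 was bounded. On 230135_at hypoxia differed from normoxia by −0.14 in DKS5 (95% interval −0.81 to 0.53, adjusted p = 0.9984 by limma) and by 0.05 in DKO3 (−0.62 to 0.72, adjusted p = 0.9912). On 237466_s_at the differences were 0.01 in DKS5 (−0.67 to 0.68) and 0.54 in DKO3 (−0.14 to 1.21). On 223775_at they were 0.06 in DKS5 (−0.57 to 0.68) and 0.71 in DKO3 (0.08 to 1.33, adjusted p = 0.698 by limma), the DKO3 value being 0.44 without replicate 2 of hypoxic DKO3 and 0.97 without replicate 1 of that group. On 1556037_s_at they were −0.28 in DKS5 (−0.94 to 0.39) and 0.22 in DKO3 (−0.44 to 0.89). On 237466_s_at and 223775_at both hypoxic DKO3 arrays lay above both normoxic DKO3 arrays, and on 230135_at and 1556037_s_at the arrays overlapped. The ACTB 3′ to 5′ ratio was lower on the hypoxic than on the normoxic DKO3 arrays, and with that ratio as a covariate the DKO3 difference was 0.81 on HHIP 223775_at. The part of RNA quality in it was not tested further.

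PTCH1 differed between hypoxia and normoxia by 0.18 in DKS5 (95% interval −0.23 to 0.59, adjusted p = 0.969 by limma) and by −0.17 in DKO3 (−0.58 to 0.24, adjusted p = 0.892) on 209815_at. On 209816_at the differences were −0.11 in DKS5 (−0.76 to 0.55) and −0.26 in DKO3 (−0.92 to 0.39). Both probe sets overlapped between conditions in each line. GLI1 differed by −0.08 in DKS5 (−0.49 to 0.33) and 0.31 in DKO3 (−0.10 to 0.72), and SMO by −0.37 (−1.07 to 0.32) and −0.32 (−1.01 to 0.37).

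IHH 215420_at had the largest response of a member in DKS5, a log2 difference of 0.98 (SE 0.29, 95% interval 0.33 to 1.63, adjusted p = 0.748 by limma). It was 0.55 without replicate 2 of hypoxic DKS5 and 1.40 without replicate 1 of that group. In DKO3 it was −0.53 (SE 0.29, −1.18 to 0.11, adjusted p = 0.768). The difference between the lines' responses was tested for all members, and 0 of 25 passed, as did 0 of all probe sets (0%). At an unadjusted p under 0.05 there was 1 member, where 3.44% of all probe sets passed. That member was IHH 215420_at, at 1.51 (SE 0.41, 0.59 to 2.43, adjusted p = 0.9998 by limma). The test recovered 0% of the 2-fold and of the 4-fold changes put into artificial data for this contrast, so that it could not have called a difference of this size.

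**Figure D5:**
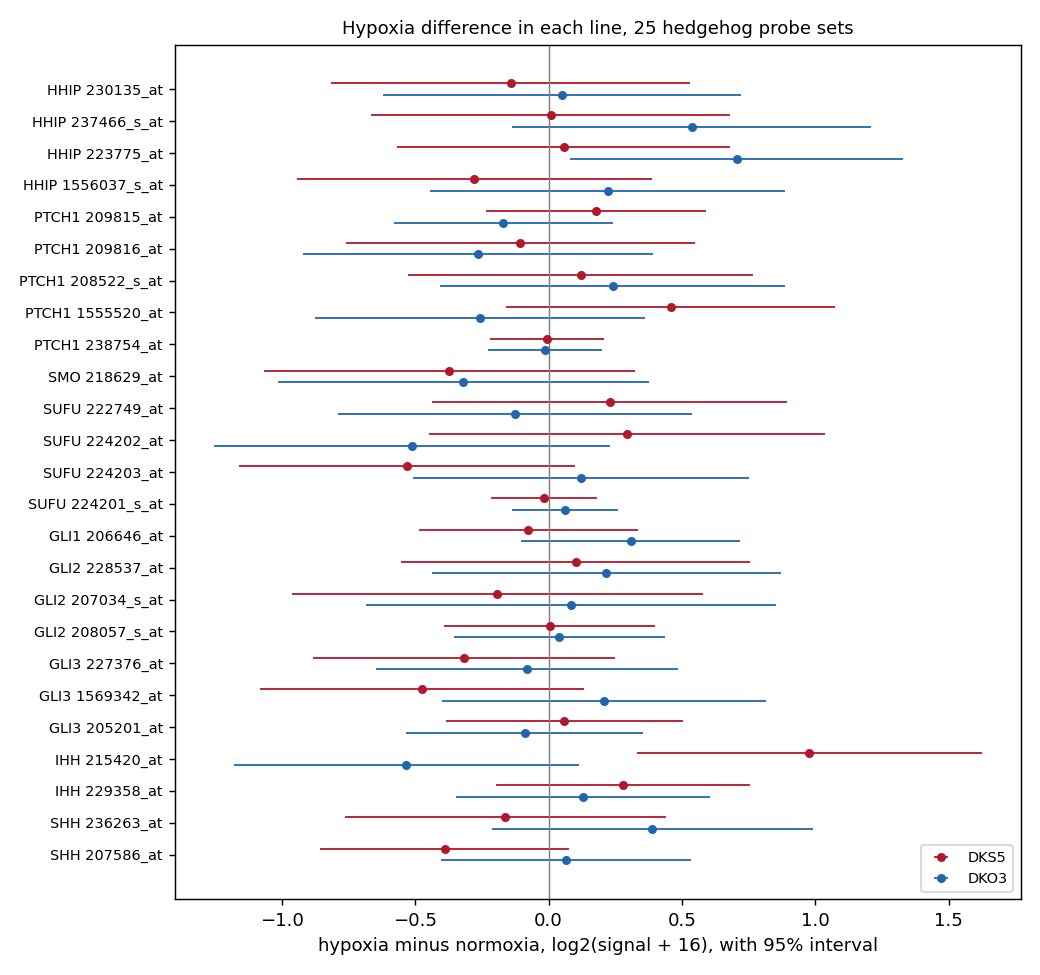
Log2 difference of hypoxia from normoxia for the 25 member probe sets, in DKS5 and in DKO3, with 95% intervals. Most intervals include 0, the exceptions being IHH 215420_at in DKS5 (0.98) and HHIP 223775_at in DKO3 (0.71), and no member passed the adjusted threshold.

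Other hedgehog genes were followed in 4 lists, ligand making and reception, cytoplasmic transduction, genes described as GLI targets, and the primary cilium, in which vertebrate hedgehog signalling takes place. Of 69 genes listed, 63 had a probe set of their own. None passed limma's adjusted p of 0.05 in any of the 5 contrasts, where among all genes, each by its brightest probe set, 0.126% were called higher and 0.303% lower in DKS5 in normoxia, and 0.202% and 0.475% in hypoxia. Under hypoxia 0.131% were called higher and 0% lower in DKS5, 0.00506% higher and 0% lower in DKO3, and 0% differed in response between the lines.

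Of the 11 measured genes of ligand making and reception, the median log2 difference of DKS5 from DKO3 was −0.02 in normoxia and 0.09 in hypoxia, beside 0.00 and −0.02 over all genes. The co-receptors CDON and BOC overlapped between the lines, CDON with 36.02 to 55.9 in DKS5 and 28.2 to 51.9 in DKO3, and BOC with 27.0 to 59.5 in DKS5 and 37.1 to 59.4 in DKO3. GAS1, a further co-receptor, had 31.7 to 39.96 in DKS5 and 12.2 to 26.5 in DKO3, with log2 differences of 0.49 in normoxia (adjusted p = 0.746 by limma) and 0.63 in hypoxia (adjusted p = 0.371). SCUBE2, which helps release the ligand from the cell, lay the other way, with 21.0 to 26.8 in DKS5 and 30.6 to 46.7 in DKO3 and log2 differences of −0.29 in normoxia (adjusted p = 0.906 by limma) and −0.51 in hypoxia (adjusted p = 0.465). DHH, the third ligand, stayed at or below 8.5 on every array.

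Of 16 measured genes of cytoplasmic transduction, the median was −0.02 in normoxia and −0.03 in hypoxia, and of 18 cilium genes −0.03 and −0.12. IFT88, an intraflagellar transport protein needed for the cilium, had 249 to 315 in DKS5 and 148 to 264 in DKO3. TULP3, which carries proteins into the cilium, had 186 to 247 in DKS5 and 212 to 406 in DKO3.

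Of 18 measured genes described as GLI targets, 7 were higher and 11 lower in DKS5 in normoxia by sign, with a median of −0.08 beside 0.00 over all genes. In hypoxia 11 were higher and 7 lower, with a median of 0.07. CCND2, a D-type cyclin picked out after its values were seen, had 18.8 and 22.5 in hypoxic DKS5 and 16.2 and 20.2 in normoxic DKS5, against 52.7 and 59.6 in hypoxic DKO3 and 62.3 and 60.2 in normoxic DKO3. Its arrays did not overlap between the lines, and its log2 difference of −1.18 in normoxia (SE 0.24, adjusted p = 0.134 by limma) passed the threshold when dim probe sets were left out first (adjusted p = 0.0262). IGFBP6 had the lowest log2 difference of the list in hypoxia, −1.18, and did not pass in the main fit. It passed there with no scaling, with dim probe sets left out and with 1 probe set per gene. SNAI1, a transcription factor of epithelial to mesenchymal transition, had the lowest adjusted p of the list in normoxia (0.115 by limma), with a log2 difference of 0.62 and dim signals of 2.2 to 12.3 in DKS5 and 0.8 to 2.3 in DKO3. TSC22D1 had 2052 to 3244 in DKS5 and 1380 to 1763 in DKO3, with differences of 0.49 in normoxia and 0.76 in hypoxia (adjusted p of 0.577 and 0.173 by limma). HSD11B2, an enzyme that inactivates cortisol, had 13.2 to 28.6 in DKS5 and 1.3 to 12.96 in DKO3, with differences of 1.03 and 0.53 (adjusted p of 0.273 and 0.488 by limma). The highest difference of the list was that of HSD11B2 in normoxia and that of TSC22D1 in hypoxia. All 4 DKS5 arrays thus lay above all 4 DKO3 arrays for TSC22D1 and HSD11B2, and below them for CCND2 and FOXF1. Of all probe sets, 3.44% lay above and 5.48% below in this way. FOXF1, a forkhead factor of gut mesenchyme, was dim, with 2.62 to 8.56 in DKS5 and 8.63 to 21.4 in DKO3, and differed by −0.47 in normoxia and −0.66 in hypoxia (adjusted p of 0.747 and 0.321 by limma). BMP4, a secreted growth factor, with 673 to 1221 in DKS5 and 561 to 1807 in DKO3, overlapped over all arrays.

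Among the colon epithelium markers, KRT20 passed the test between the lines in both conditions and VIL1 in normoxia. KRT20, a keratin of differentiated colon cells, had 6.2 to 15.5 in DKS5 and 301 to 445 in DKO3 (log2 difference −4.09, adjusted p = 0.001 in normoxia, and −3.92, adjusted p = 0.0011 in hypoxia, by limma). VIL1, the microvillus protein villin, had 54.8 to 103 in DKS5 and 12.8 to 17.6 in DKO3 (log2 difference 1.77, adjusted p = 0.0445 in normoxia by limma), and did not pass in hypoxia (1.53, adjusted p = 0.0594 by limma). KRT20 and VIL1 thus moved with the line in opposite directions, and their part in the HHIP and PTCH1 differences was not tested. Over all 12 colon epithelium markers, the median log2 difference of DKS5 from DKO3 was −0.06 in normoxia and 0.03 in hypoxia. By sign, 5 of the 12 were positive in normoxia and 7 in hypoxia.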

How the data were processed

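Gene expression was measured on 8 one-colour Affymetrix HG-U133 Plus 2.0 arrays (2 lines, 2 oxygen levels, 2 samples per group). The deposited values are linear probe set intensities, which the authors made with MAS5, as the submitters' processing notes record. The program's version and settings are not given in the sources used here. Detection calls played no part. Probe sets were named from the platform annotation with symbols checked against RefSeq: 41091 had 1 symbol, 1801 several and 11721 none, and no symbol changed. Each array was scaled to the median of the arrays' 2% trimmed means (172.1), and log2(signal + 16) was fitted with limma (3.58.1, under R 4.3.3), using all 8 arrays and a mean for each group (lmFit, contrasts, trended eBayes, 4 residual and 5.24 prior degrees of freedom, two-sided). P-values were Benjamini-Hochberg adjusted over the 54613 probe sets left without 62 controls, with a threshold of 0.05 and no filter on dim probe sets, so that every member had a test. The number of arrays limits the precision. The fit was checked on artificial data made from the arrays' means and spreads, with 200 changed probe sets per contrast. The changes were of signal + 16. Those of 2-fold were called in 14% and 9% of cases for the lines in normoxia and hypoxia, and 4-fold ones in 67% and 59%.

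The members and the gene lists were chosen with earlier results of these data known, and lists are described only by counts and medians, each gene by its brightest probe set. Named genes were all member probe sets, up to 4 genes per other list and contrast past the threshold, the 5 nearest genes with a probe set on each side of HHIP, and the 5 genes most correlated with HHIP; others are said to have been picked after their values were seen or stand as examples of their list. Some genes of the lists are not reported here. Promoter windows are from RefSeq (GRCh38.p14), with none used here for GLI1 and GLI3. Alternatives were pseudocounts of 1 and 64, no scaling, quantile normalization, a filter at the 40th percentile, 1 probe set per gene, fits on the compared arrays alone, the ACTB 3′ to 5′ ratio as a covariate, a replicate block, eBayes without a trend, and leaving out each array.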

Additional observations from a re-analysis of the deposited data

Results flagged for a closer look

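IHH 215420_at responded to hypoxia in opposite directions in the 2 lines without overlap of arrays, with 15.03 and 39.9 in hypoxic DKS5 against 8.2 and 2.5 in normoxic DKS5, and 3.5 and 7.2 in hypoxic DKO3 against 15.9 and 13.6 in normoxic DKO3. The difference between the responses was 1.51 on the log2(signal + 16) scale (SE 0.41), which did not pass correction (limma, adjusted p = 0.9998, 0.511 at the lowest over the alternatives), and 3.93% of all probe sets had such opposite, non-overlapping responses. The probe set is dim, and the value was 1.09 without replicate 2 of hypoxic DKS5 (its signal of 39.9) and 1.94 without replicate 1 of that group. The second IHH probe set, 229358_at, gave 0.15 (95% interval −0.52 to 0.83).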

How the results depend on the processing

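No member probe set passed the threshold for hypoxia in DKS5, for hypoxia in DKO3 or for the difference between those responses under any alternative, and HHIP 230135_at was higher in DKS5 in all of them. Its log2 difference between the lines, 3.64 in normoxia and 3.45 in hypoxia, was 4.45 and 4.21 with a pseudocount of 1 and 2.52 and 2.38 with 64, as the pseudocount sets how far dim DKO3 signals can fall, and 3.09 in hypoxia with no scaling. Leaving out single arrays gave 3.46 to 3.82 in normoxia and 3.11 to 3.78 in hypoxia. Member probe sets with a log2 difference of at least 1 between the lines numbered 4 in normoxia, and 9 with a pseudocount of 1 and 1 with 1 probe set per gene (which keeps 1 HHIP probe set by construction). In hypoxia they numbered 3, and 7 with a pseudocount of 1, 5 with quantile normalization, 1 with 1 probe set per gene, 7 with the RNA quality covariate, and 3 to 6 without single arrays (6 without replicate 1 of hypoxic DKS5, 5 without replicate 2 of hypoxic DKO3); the cause was not tested. Of the pathway lists, 0 genes passed between the lines, but 1 in normoxia with the filter, with 1 probe set per gene and without a trend (CCND2 each time), and in hypoxia 3 with no scaling (CCND2, KIF7, IGFBP6), 1 with the filter (IGFBP6) and 3 with 1 probe set per gene (CCND2, IGFBP6, TSC22D1). Over all probe sets the 234 calls between the lines in hypoxia became 2011 with no scaling, 682 with the filter, 3 with the RNA quality covariate and 4 to 84 without single arrays; the 130 in normoxia became 378, 51 and 5 to 100 with the last 3 changes. The 37 calls for hypoxia in DKS5 became 87 with the filter and 1 to 18 without single arrays, and the 1 in DKO3 became 58 and 0 to 3. Same-numbered samples were not treated as pairs in the main fit. Their deviations from the group means correlated at −0.04 to 0.26, over 0.1 in 2 of 6 pairs of groups. Those 2 were hypoxic DKS5 with hypoxic DKO3 (0.26) and normoxic DKS5 with normoxic DKO3 (0.16). The replicate block fits 1 shift common to all 4 groups. Whether same-numbered samples shared a run within an oxygen level was not tested. With the replicate block 0 members were called and the HHIP difference was 3.64 and 3.45. The calls over all probe sets then numbered 161 and 263 between the lines in normoxia and hypoxia. Array signals near background limit SMO, GLI1 and IHH, whose probe sets were all dim.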
